A study of Mus musculus with 8 samples.

Results

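Ribosome footprints were set against total RNA within testes of C57BL/6 mice null for Miwi, at postnatal day 24, to see which mRNAs carried many or few ribosomes in a testis without MIWI. The members are the 4 libraries labelled Miwi-null, 2 of total RNA and 2 of ribosome-protected fragments (RPF, the short stretches of mRNA that a ribosome shields from nuclease), out of 8 libraries in all. The other 4 libraries are wild-type testes of the same strain and age, with the same assays, and serve here as the reference. Each gene was represented by the transcript with the highest mean count in the null libraries. Of 21949 genes in the tables, 15310 had enough counts to be tested. The labels give the genotype as null and do not describe the allele, and the tissue is whole testis, so every value is an average over germ cells and somatic cells. The labels name no animals, so each p-value reflects only how far these libraries spread, and that spread may be technical.

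MIWI, encoded by Piwil1, is a PIWI-clade Argonaute protein that binds pachytene piRNAs and is found in spermatocytes and round spermatids. Spermatids stop transcribing as their chromatin is packed with protamines, so they make many of their late proteins from mRNAs that were transcribed earlier and kept in ribonucleoprotein particles without ribosomes. Ribosome profiling with matched RNA-seq reports such storage as few footprints for much RNA.

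Gene counts, with 1 transcript per gene, were 12721279 and 11130626 in the null RNA libraries and 11664503 and 28338999 in the null footprint libraries. A single count was worth 0.0353 to 0.0898 CPM (the count as a share of its library's total, the usual unit of RNA-seq) over the 8 libraries. The RNA pair correlated at r = 0.997 and the footprint pair at r = 0.986 across 10171 genes, which are not independent replicates. Counts of the RNA pair differed by little more than sampling noise, with a chi-square per gene of 1.18, against 22.4 for the footprint pair. All marker genes of the 10 testis cell types examined had RNA counts in the null testis, which does not show that every cell type was present. The markers of elongating spermatids (Prm1, Prm2, Tnp1, Tnp2, Odf1) summed to 851 and 849 CPM in null RNA, against 11850 and 11814 CPM in wild-type RNA. Their footprints summed to 54.3 and 55.1 CPM in the null and 6032 and 5707 CPM in wild type. Round spermatid markers (Acrv1, Crem, Spaca1, Acr, Tssk1) differed less, with RNA of 969 and 995 CPM in the null and 1068 and 1052 in wild type. The footprints of these round spermatid markers summed to 1056 and 1093 CPM in the null and 1809 and 1729 in wild type. Marker sums are shares of plain totals, and all other CPM below use TMM-scaled totals. In a bulk tissue, fewer cells of a type and less RNA per cell cannot be told apart.

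Piwil1 itself checked the labels. Its RNA was 3.59 and 2.31 CPM in the null libraries and averaged 543 CPM in wild type on the scale of all 8 libraries. Null footprints were 3.27 and 3.28 CPM against a wild-type mean of 436. These counts gave a log2 ratio of footprints to RNA of 0.14 ± 0.26 (SE), which passed no threshold.

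The ratio varied widely between mRNAs. The ratio is given throughout as log2(footprints / RNA), fitted on counts with edgeR's quasi-likelihood test. P-values were adjusted by Benjamini-Hochberg over all genes tested. The standard error (SE) was derived from that test, as the size of the log2 value divided by the square root of the test's F statistic. Because library scaling centres most genes near 0, the ratio is relative to the typical gene. The 5th, 25th, 75th and 95th percentiles of the log2 ratio were -2.97, -1.07, 1.07 and 2.69, with a median of 0.02. The spread between genes (SD 1.88) far exceeded the median SE of 0.149. At an adjusted p under 0.05, 77.9% of genes differed from the typical gene, so a call alone says little, and the counts below also ask for a difference over 2-fold. By that rule 4023 genes (26.3%) had more footprints than RNA predicts and 3997 (26.1%) had fewer. Differences over 16-fold were found for 363 genes on the low side and 214 on the high side. RNA level gave a loose account of footprint level, with r = 0.588 between log2 values across 8302 genes at 10 CPM or more in both assays.

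**Figure D1:**
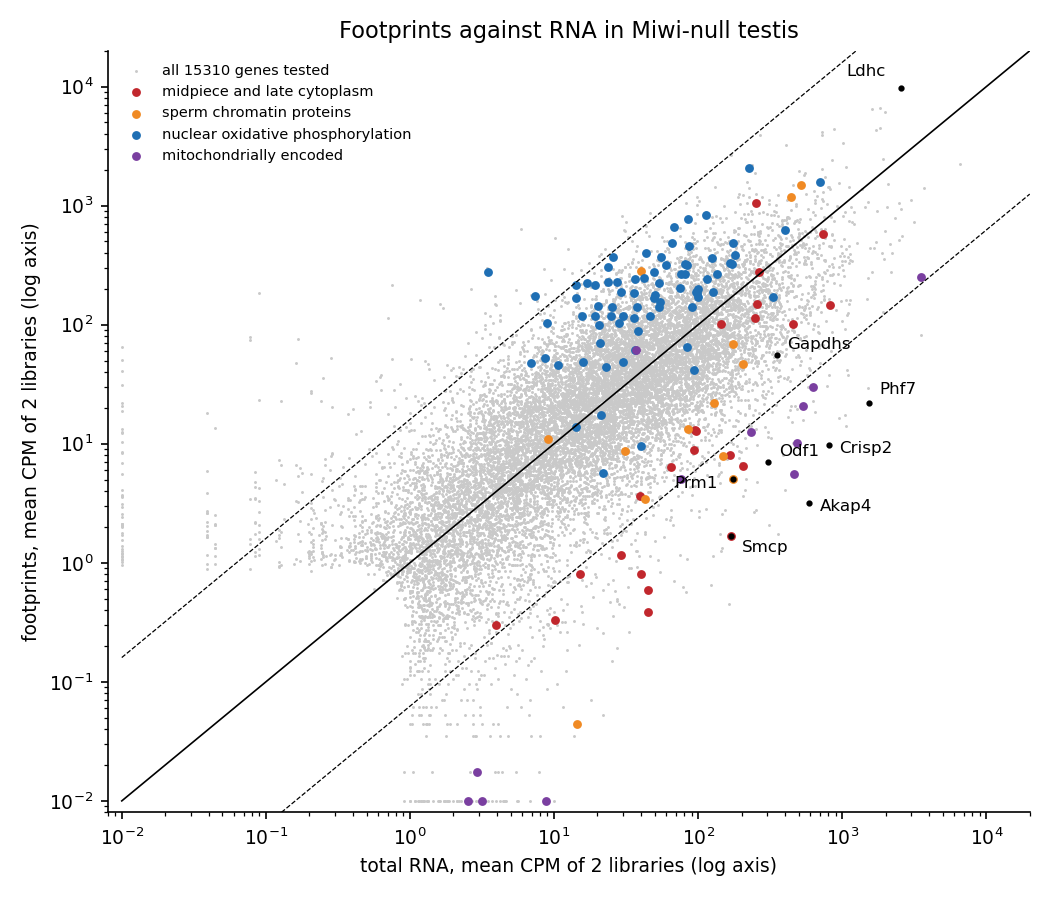
Mean footprint level against mean RNA level (CPM, both axes logarithmic, 2 libraries each) for the 15310 genes tested in Miwi-null testis, with values under 0.01 drawn at 0.01. The solid line marks equal shares and the dashed lines 16-fold differences; Akap4, Crisp2 and Phf7 lie below the lower dashed line, 11 of 12 mitochondrially encoded genes lie near or below it, and 57 of 76 nuclear oxidative phosphorylation genes lie more than 2-fold above the solid line.

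Coding length moved with the ratio. Genes were ranked into 10 equal bins by the length of the counted coding sequence. The shortest bin (75 to 507 bases) had a median log2 ratio of 1.09 and the longest (3531 to 105639 bases) of -1.20, and the median fell from each bin to the next. In the shortest bin 51.8% of genes were over 2-fold higher, and in the longest 57.7% were over 2-fold lower. The labels give RNA inserts of 287.6 and 284 bases on average in the null libraries and footprint inserts of 28.5 bases in both; the part of this difference in the trend was not tested. List counts and medians are therefore also given after a smooth trend in coding length was subtracted, called length-adjusted below, by which 20.2% of all genes were over 2-fold higher and 24.3% over 2-fold lower.

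**Figure D2:**
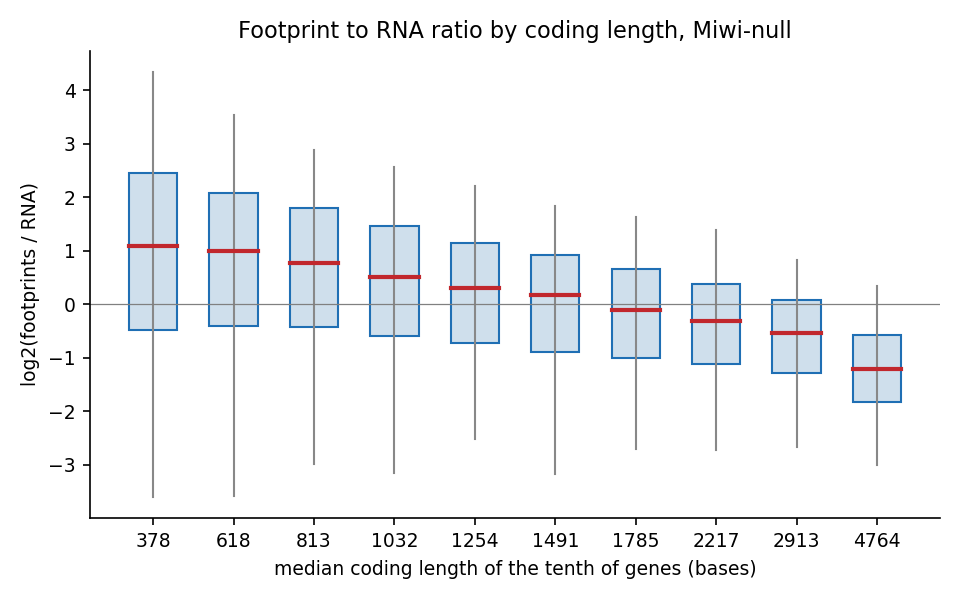
Distribution of log2(footprints / RNA) in Miwi-null testis over 10 bins of coding length, each named by its median length in bases. Red bars are medians, boxes the 25th to 75th and lines the 5th to 95th percentiles; the medians fall from 1.09 in the shortest bin to -1.20 in the longest.

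Sperm chromatin proteins, which replace histones in elongating spermatids, had few footprints for their RNA. Of 13 genes tested, 9 were over 2-fold lower in footprints and 3 over 2-fold higher, with a median log2 ratio of -2.11 (length-adjusted -3.19) against 0.02 over all genes. Prm1 (protamine 1, RefSeq position chr16:10796332-10796823 in GRCm38.p6) had 173 and 175 CPM in RNA and 4.60 and 5.45 CPM in footprints. Its log2 ratio was -5.08 ± 0.12 (adjusted p = 1.35e-06), a 33.9-fold deficit. Prm2 (chr16:10791377-10792105) had 148 CPM in both RNA libraries and 8.76 and 6.95 CPM in footprints, 19.2-fold lower. The transition proteins Tnp1 and Tnp2, which come before the protamines on chromatin, were lower by less. Tnp1 had 84.4 and 85.9 CPM in RNA against 13.9 and 12.7 in footprints (log2 -2.69 ± 0.11), and Tnp2 had 131 and 127 against 21.0 and 23.2 (-2.54 ± 0.10). The lowest member, 1700024P04Rik, had 192 and 158 RNA counts and 1 and 0 footprint counts, a ratio of shares of 587 with a 95% counting interval of 105 to 23251. In none of the 4 protamine and transition protein genes named above did the RNA and footprint libraries overlap. That alone says little, since 77.9% of all genes were called. Prm3, from the same cluster on chromosome 16, differed from these 4. It had 9.43 and 8.81 CPM in RNA against 11.3 and 10.6 CPM in footprints. Its log2 ratio of 0.26 was not called and was -1.11 after length adjustment. Tssk6, a kinase needed for chromatin condensation, had a log2 ratio of -3.60, and the linker histone Hils1 -2.11. The histone variants of earlier germ cells went the other way. Hist1h1t, the linker histone of spermatocytes, was at 1.42, Hist1h2ba at 1.54 and Hist1h2aa at 2.81, with footprints of 259 and 309 CPM over RNA of 39.5 and 41.3. After length adjustment Hist1h2ba was at 0.30 with no call, and 1 gene of the list was over 2-fold higher and 10 lower. Histone genes share sequence, and how multiply mapping reads were treated is not given in the sources used here, so their values are uncertain.

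The tail showed both ends of the range. Of 22 genes for the fibrous sheath, outer dense fibres and neighbouring parts, 9 (40.9%) were over 2-fold lower and 7 (31.8%) over 2-fold higher. The shares over all genes were 26.1% and 26.3%, and the median of the list was 0.35. After length adjustment 4 were higher and 9 lower, with a median of 0.22. Akap4 (chrX:7067515-7078609), the main protein of the fibrous sheath, had the lowest ratio of the list. Its RNA was 589 CPM in both libraries and its footprints were 2.92 and 3.42 CPM, a 181-fold deficit (log2 -7.50 ± 0.12, adjusted p = 8.89e-07). Odf1 (chr15:38219203-38226735), an outer dense fibre protein, had 308 and 306 CPM in RNA and 7.78 and 6.21 in footprints, 44.9-fold lower. All 4 outer dense fibre genes tested were over 2-fold lower, with log2 ratios from -5.49 to -1.79. Cabs1 had 62.8 and 66.0 CPM against 2.39 and 2.44 (-4.73 ± 0.13). The sheath genes Fscb and Akap3 lay at -3.56 and -2.87. Tektins, filament proteins inside the axoneme, ranged from -0.77 to 1.31 over 5 genes, all of them called, with Tekt1 over 2-fold higher. Ropn1, Ropn1l, Cabyr and Spa17, proteins that associate with the fibrous sheath, were at 1.64, 1.21, 1.31 and 2.89. Spa17 had 76.0 and 73.6 CPM in RNA and 523 and 583 CPM in footprints. Genes for the same sheath thus stood on both sides of the typical gene.

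Midpiece and late cytoplasmic genes had the lowest median of the lists encoded in the nucleus. Of 23 tested, 18 were over 2-fold lower and 1 over 2-fold higher, and the median was -3.40 (length-adjusted -3.88). Smcp, a cysteine-rich protein of the mitochondrial capsule and a classic case of mRNA storage, had 175 and 163 CPM in RNA and 1.15 and 2.23 CPM in footprints (log2 -6.49 ± 0.22). Spem2 had 46.4 and 43.9 CPM against 0.531 and 0.244 (-7.07 ± 0.24), the lowest of the list, and its neighbour in name Spem1 was at -5.80. Further low members were the chaperones Dnajb8 (-6.00) and Hspa1l (-4.36) and the antizyme Oaz3 (-4.93), whose protein is made late in spermatids. Gpx4, the selenoprotein of the mitochondrial capsule, was lower by 1.28-fold only, with a log2 ratio of 0.07 with the longest transcript and -1.34 after length adjustment. Its call was lost without either RNA library. Meig1 was the gene on the high side. Its RNA was 244 and 257 CPM and its footprints were 1067 and 1032 CPM (2.07 ± 0.08). After length adjustment its ratio was 0.62, and 20 genes of the list were over 2-fold lower and none higher.

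**Figure D3:**
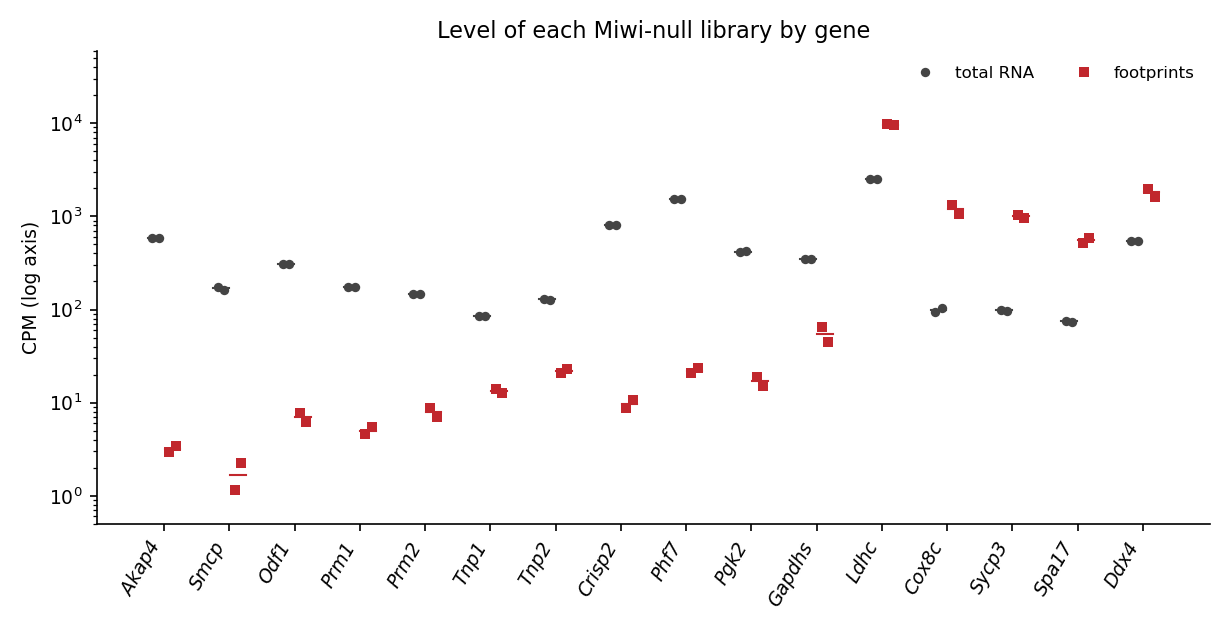
RNA (circles) and footprint (squares) levels in CPM on a logarithmic axis for 16 genes in each of the 4 Miwi-null libraries, with bars at the means of 2 libraries. The 11 genes from Akap4 to Gapdhs have lower footprints, and the 5 genes from Ldhc to Ddx4 have higher footprints.

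Acrosomal genes were spread around the typical gene, with a few far below it. Of 49 tested, 15 were over 2-fold lower and 6 over 2-fold higher (median -0.25), and 20 lower and 3 higher after length adjustment (median -0.68). Crisp2, a cysteine-rich secretory protein of acrosome and tail, had 804 and 808 CPM in RNA and 8.76 and 10.8 CPM in footprints, 81.1-fold lower. Adam3, a sperm surface protein needed for passage into the oviduct, had 1087 CPM in both RNA libraries and 40.2 and 43.0 CPM in footprints (-4.70 ± 0.09). The protease Acr (acrosin) was near the typical gene at -0.38, and the sperm fusion protein Izumo1 at 0.38. Acrv1, Spaca1 and Tmem190 had more footprints, at 1.07, 1.18 and 3.12. The acrosomal list thus held no common level: its members ranged from -6.34 to 3.12.

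Enzymes of germ cell energy metabolism lay on both sides of the typical gene. Of 28 tested, 10 (35.7%) were over 2-fold higher and 9 (32.1%) over 2-fold lower (median 0.13), against 26.3% and 26.1% of all genes. After length adjustment 8 were higher and 9 lower (median 0.11), against 20.2% and 24.3% of all genes. Several sperm glycolytic enzymes were low. Pgk2, the phosphoglycerate kinase of sperm, had 418 and 421 CPM in RNA and 18.7 and 15.2 in footprints (-4.65 ± 0.13). Gapdhs, the sperm glyceraldehyde phosphate dehydrogenase, had 351 and 353 CPM against 65.3 and 45.2 (-2.68 ± 0.17). The aldolases Aldoart1 and Aldoart2 were at -2.47 and -2.56, and Hk1 at -1.77, whereas Tpi1 (-0.06), Pgam2 (0.09) and Eno4 (0.15) were not called. Ldhc, the lactate dehydrogenase of spermatocytes and sperm, was the opposite. Its RNA of 2532 and 2543 CPM carried 9741 and 9537 CPM of footprints, 3.80-fold more. The testis forms of respiratory subunits were higher still: Cox8c had 93.2 and 103 CPM in RNA and 1321 and 1052 in footprints (3.60 ± 0.14), Cox7b2 was at 3.10 and the testis cytochrome c Cyct at 3.09.

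Regulators of transcription in round spermatids were more often low than high. Of 28 tested, 12 were over 2-fold lower and 3 over 2-fold higher. After length adjustment 11 were lower and 2 higher, and the median of -0.45 became 0.05. Phf7, a chromatin reader of spermatids, had 1528 and 1521 CPM in RNA and 20.6 and 23.5 CPM in footprints, 68.6-fold lower. Fhl5, the coactivator of CREM, had 84.5 and 83.1 CPM against 6.46 and 7.85 (-3.52 ± 0.13), and Rfx2, a transcription factor of ciliated cells and spermatids, was at -2.79. CREM's own mRNA, Crem, was at 0.52. Taf7l, a component of the germ cell TFIID complex, had more footprints than RNA (2.51 ± 0.13).

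Large deficits of footprints were also seen outside the lists. Among 4358 genes with RNA of at least 50 CPM, 110 (2.52%) were over 16-fold lower in footprints, and 20 of these stood in a list. The following genes were chosen after their values were seen, as those with the highest RNA of the 110. Atp8b3, a phospholipid flippase of the acrosome region, had 3517 and 3512 CPM in RNA and 76.9 and 88.4 CPM in footprints (-5.41 ± 0.10). Without footprint library 1 its ratio was -5.29 with an adjusted p of 1. Fhl4 had 1509 and 1502 CPM against 27.9 and 31.1 (50.8-fold lower), and Mroh2b 1076 and 1061 against 14.1 and 14.3 (75.3-fold lower). Tesk1, a protein kinase first found in testis, had 1094 and 1104 CPM against 34.4 and 40.8, and Phkg2, the catalytic subunit of testis phosphorylase kinase, had 1055 and 1046 against 17.1 and 17.9. Sord, which makes fructose from sorbitol, was 57.7-fold lower and Haspin, a histone H3 kinase, 21.3-fold lower. Larger deficits at lower RNA levels were seen in Ms4a14 (361 and 357 CPM against 1.5 and 1.95, 198-fold), Spz1 (313 and 308 against 1.59 and 2.55, 139-fold) and 4933411K16Rik (167 and 158 against 0.442 and 0.454, 355-fold). A search of the RefSeq windows from 250 bases before to 50 after the start for the cyclic AMP response element TGACGTCA, which reads alike on both strands and was chosen after the values were seen, found it in 3 of the 80 genes of this group that had a window (3.75%). Its share was 4.06% among all genes with RNA of at least 50 CPM.

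The piRNA pathway, to which MIWI belongs, lay close to the typical gene. Of 33 genes tested, 6 (18.2%) were over 2-fold higher and 5 (15.2%) over 2-fold lower, against 26.3% and 26.1% of all genes. The median of the list was 0.18. After length adjustment 10 were higher and 3 lower, with a median of 0.76. The other PIWI genes Piwil2 and Piwil4 had log2 ratios of 0.15 and 0.41 and passed no threshold. The 7 tudor domain genes ranged from -0.44 to 1.88. Highest were Asz1 (2.10 ± 0.10) and Fkbp6 (4-fold), both needed for piRNA production, and they were followed by Tdrkh (1.88), a tudor domain protein. Ddx4, the germ cell helicase, came next, with 547 and 543 CPM in RNA and 1992 and 1628 in footprints (1.73 ± 0.11). Lowest were Kif17, a kinesin that carries a CREM coactivator, with 327 and 337 CPM against 56.7 and 61.0 (-2.49 ± 0.09), and Mael at -1.31.

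Proteins that store, tail or translate germ cell mRNAs lay on both sides of the typical gene. Of 58 tested, 18 (31%) were over 2-fold higher and 9 (15.5%) over 2-fold lower (median 0.42), against 26.3% and 26.1% of all genes. After length adjustment 13 were higher and 9 lower (median 0.25), a share of higher genes near that of all genes. Tex13a had 33.5 and 32.8 CPM in RNA and 0.177 and 0.349 in footprints (-6.76 ± 0.23). Papolb, the cytoplasmic poly(A) polymerase of spermatids, had 705 CPM in both RNA libraries and 46.8 and 48.2 in footprints, 14.8-fold lower. The polyadenylation element binding proteins Cpeb2 and Cpeb3 were at -2.88 and -2.08, and Cpeb1 at 0.56. Pabpc1, poly(A) binding protein, was at -1.40 while its partners Paip1, Paip2 and Paip2b were at 2.83, 2.11 and 2.22. Dazl, an activator of germ cell translation, was at 2.39, and the cold-induced Cirbp at 3.26. Ybx2, the main mRNA storage protein of male germ cells, had 1348 and 1374 CPM in RNA and 1414 and 1346 in footprints. Its ratio of 0.02 ± 0.07 was not called, and its sign changed to -0.44 with length adjustment and to -0.15 with transcripts summed. Ddx25, a helicase of the chromatoid body, was 1.60-fold higher.

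Ribosomal protein mRNAs lay on both sides of the typical gene before length adjustment and mostly below it after. Of 79 tested, 28 were over 2-fold lower and 17 over 2-fold higher, and the median was -0.05. After length adjustment 44 were over 2-fold lower and 1 higher, with a median of -1.19. The 46 genes of the large subunit ranged from -5.25 (Rpl29) to 3.34 (Rpl22), and the 31 of the small subunit from -3.18 (Rpsa) to 2.08 (Rps21). These genes have many processed copies in the genome, so single values are uncertain. The main elongation factors were low: Eef1a1 had 2224 and 2214 CPM in RNA and 323 and 477 in footprints (-2.47 ± 0.18), and Eef2 2583 and 2604 against 569 and 554 (-2.21 ± 0.07), while the exchange factor Eef1b2 was at 1.72. Over the list of 58 initiation and elongation factors, 18 were over 2-fold higher and 5 over 2-fold lower (median 0.33). After length adjustment 12 were higher and 9 lower (median 0.17), a share of higher genes near that of all genes. Single initiation factors were high, with Eif4h at 2.70, Eif1ax at 2.42 and the eIF3 subunits from -0.09 to 1.46.

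Ribosomal protein mRNAs are known for starting with a C and a run of pyrimidines, the 5′ terminal oligopyrimidine motif through which growth signals control their translation. RefSeq transcription starts (GRCm38.p6) were found for 11786 of the genes tested and for 58 of the ribosomal protein genes. A C at the first base followed by at least 4 C or T was present in 14 of those 58 (24.1%) and in 360 of all 11786 (3.05%). The share with the run at the annotated first base was 3.15% among genes over 2-fold higher and 2.91% among genes over 2-fold lower. Within ribosomal proteins, the 14 genes with the run had a median of 0.05 and the 44 without it of -0.02, before length adjustment. A run within 10 bases of the annotated start was present in 35 of the 58 (60.3%) and in 4322 of all 11786 (36.7%). The split depends on starts annotated to the exact base, so it cannot tell genes with the motif from genes without it. The starts below, 10 bases before and 20 from the first base with the run in capitals, are from the lowest 2 and the highest 2 of the 14 and show that the run occurred at both ends of the range; among these 4 it was longest in Rpl35 (11 bases) and shortest in Rps21 (5 bases). Rpl35 lies at chr2:39005112-39005141 (minus strand), Rps27 at chr3:90213629-90213658 (minus), Rpl38 at chr11:114668570-114668599 (plus) and Rps21 at chr2:180257369-180257398 (plus).
Rpl35: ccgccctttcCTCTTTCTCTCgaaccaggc
Rps27: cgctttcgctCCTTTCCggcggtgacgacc
Rpl38: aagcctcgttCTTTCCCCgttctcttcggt
Rps21: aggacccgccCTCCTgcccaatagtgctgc
The log2 ratios were -2.65 for Rpl35 and -1.95 for Rps27, and 1.96 for Rpl38 and 2.08 for Rps21.

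Respiratory chain subunits differed by the genome that encodes them. The 12 mitochondrially encoded mRNAs tested, translated by mitochondrial ribosomes, had a median of -5.12, and 11 were over 2-fold lower, also after length adjustment (median -5.48). Wild type gave a like median of -5.27, with 11 over 2-fold lower. How fully the footprint assay recovered mitochondrial ribosomes was not tested. In the null, mt-Cytb had 647 and 608 CPM in RNA and 26.4 and 33.9 in footprints, and mt-Nd4 505 and 469 against 9.46 and 10.9. mt-Co3 had 6.86 and 10.7 CPM in RNA and no footprint count in either library, at least 116-fold lower over both libraries from a floor of 3 counts. mt-Nd6, the gene on the opposite strand, was the exception at 0.72, a value that turned to -0.35 after length adjustment and lost its call without RNA library 1. Nuclear genes of oxidative phosphorylation were high. Of 76 tested, 57 were over 2-fold higher and 3 lower (median 1.89); after length adjustment these were 38 and 6 (median 1). Before length adjustment every complex had a high median. These medians were 1.93 for the 37 genes of complex I, 1.93 for complex II, 1.66 for complex III, 2.66 for complex IV and 1.51 for ATP synthase. After length adjustment the median of each complex was lower but still positive, the lowest being 0.81 for complex III and 0.90 for complex I. Of the 37 complex I genes, 29 were over 2-fold higher before length adjustment. After it 17 were over 2-fold higher and 2 over 2-fold lower. The 76 nuclear genes together took 0.571% and 0.578% of RNA counts and 1.98% and 1.99% of footprint counts. Atp5k was highest (3.35 and 3.65 CPM in RNA, 342 and 211 in footprints). Atp5g1 and Atp5g2, which encode the same mature subunit c as Atp5g3, were at -2.08 and -1.86 while Atp5g3 was at 3.19.

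Proteasome genes were high too. Of 35 tested, 26 were over 2-fold higher and 1 lower (median 1.94), and 23 and 0 after length adjustment (median 1.38). All 8 Psma genes of the outer core rings and 6 of 7 Psmb genes were over 2-fold higher. Psma7 had 26.9 and 27.0 CPM in RNA and 219 and 194 in footprints, and the testis form Psma8 was at 2.69. Psme4, the activator that acts on acetylated histones in spermatids, was the gene on the low side, with 1044 and 1041 CPM against 333 and 346 (-1.62 ± 0.07, length-adjusted -0.38). Chaperones had 13 of 36 higher and 7 lower over 2-fold (length-adjusted 13 and 9, median 0.82 in both), with Cct8 at 2.41 and the late Dnajb8 and Hspa1l lowest. Of 21 selenoprotein genes, 8 were over 2-fold higher and 2 lower. After length adjustment 4 were higher and 6 lower, and the median of 0.25 became -0.07. Selenok was at 3.14 and Selenov at -3.55. The integrated stress response, which acts through upstream reading frames, had 7 of 26 genes higher and 3 lower (length-adjusted 6 and 4, medians 0.23 and 0.43), a share of higher genes near that of all genes. Its central factor Atf4 had 35.1 and 35.4 CPM in RNA and 31.6 and 26.5 in footprints (-0.29 ± 0.12, not called), and Ddit3 was at -2.10 ± 0.32. Hspa5, the chaperone of the endoplasmic reticulum, was at 1.08 and Xbp1 at 1.56.

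Meiotic prophase genes were more often high than low. Of 50 tested, 23 were over 2-fold higher and 4 lower (median 0.85), and 17 and 1 after length adjustment (median 0.79). Sycp3, of the synaptonemal complex, had 99.5 and 97.0 CPM in RNA and 1042 and 969 in footprints (3.36 ± 0.09). Tex12 (3.55), Rec114 (2.78), Dmc1 (2.18) and Hormad1 (2.05) were also high, and Sycp1 was at 1.36. Brca2 and M1ap were at -1.38 and -1.55, the value for Brca2 turning to 0.42 after length adjustment. Genes of the meiotic divisions centred on 0.26, with 9 of 40 higher and 5 lower, and with the same counts and a median of 0.52 after length adjustment; the share of higher genes was near that of all genes. Cdk1 had 39.2 and 39.9 CPM against 159 and 177 (2.09 ± 0.10), and its activating phosphatase Cdc25c was at -1.56. Spermatogonial genes had 10 of 26 higher and 5 lower (8 and 5 after length adjustment, medians 0.73 and 0.55), from Bcl6b at -3.06 to Rhox13 at 3.68. Among axonemal genes the longest were low: all 13 dynein heavy chains (11880 to 14193 bases) were over 2-fold lower, from -1.86 to -1.40, and none was so after length adjustment. Over the list of 55, 12 were over 2-fold higher and 20 lower, and 15 and 0 after length adjustment, the median of -0.04 becoming 0.53. Among the shorter axonemal genes, Rsph1 of the radial spoke had 723 and 726 CPM in RNA and 4399 and 3910 in footprints.

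Sertoli, Leydig and immune cell genes were more often high than low. Of 34 Sertoli cell genes, 20 were over 2-fold higher and none lower (median 1.16). After length adjustment 15 were higher and none lower, with a median of 0.96. They took 0.316% and 0.319% of RNA counts and 1.12% and 1.14% of footprint counts. Aard, expressed in Sertoli cells, had 43.9 and 46.6 CPM in RNA and 529 and 591 in footprints, Cst12 was at 4.53 and Rhox5 at 3.13, while Gata4 was at 0.02. Leydig cell genes had 15 of 28 higher and 2 lower before and after length adjustment, with medians of 1.09 and 1.14. Star, which brings cholesterol into mitochondria, was at 2.74, Insl3 at 2.01 and Cyp11a1 at 0.61. Nr4a1 had 30.8 CPM in both RNA libraries against 9.46 and 8.03 (-1.83 ± 0.14). Immune cell genes had 13 of 23 over 2-fold higher and 2 lower (length-adjusted 10 and 2, medians 1.10 and 0.82). Peritubular genes had 12 of 30 higher and 5 lower (length-adjusted 12 and 1, medians 0.20 and 0.73). Tropomyosins had the highest ratios of the peritubular list, with Tpm1 at 3.73 and a higher ratio still for Tpm2 (18.4-fold), and Flna (-2.10) and Fn1 (-1.60), for filamin and fibronectin, the lowest. With length adjusted, Flna was at -0.52 and Fn1 at -0.08, the latter with no call. Vessel and blood genes had a median of -0.73 with 6 lower and 4 higher among 19 (length-adjusted -0.57, with 7 and 3): the endothelial genes Sox17, Vwf, Tek and Tie1 lay between -2.92 and -2.27, and the globin genes Hba-a1 and Hbb-bs at 2.92 and 2.52.

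**Figure D4:**
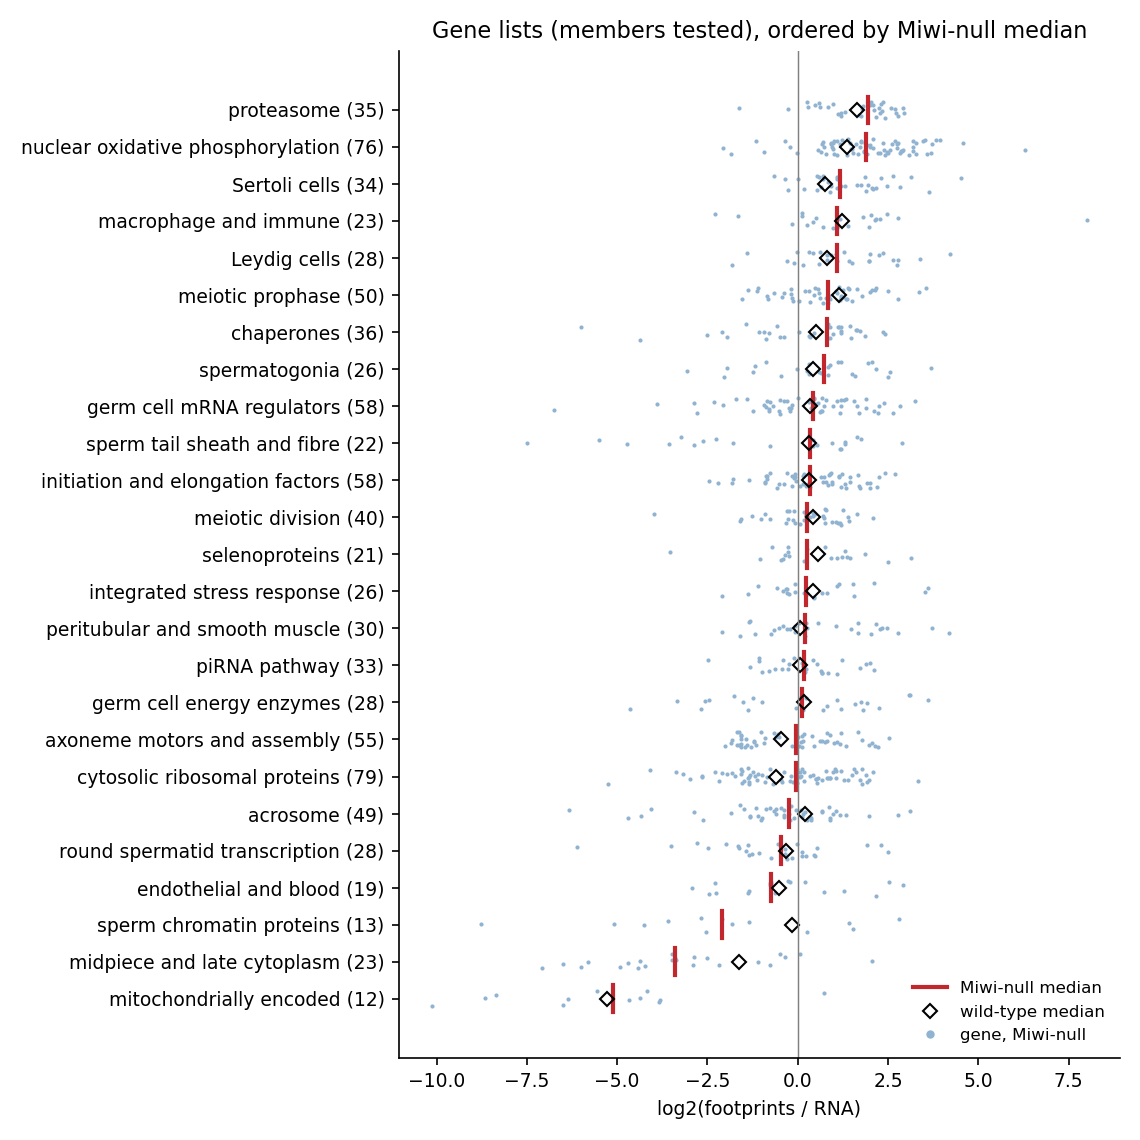
Log2(footprints / RNA) of each gene tested in Miwi-null testis (dots), by gene list, with the Miwi-null median (red bar) and the wild-type median of the same genes (open diamond); numbers in brackets are genes tested. The lists run from mitochondrially encoded genes (median -5.12) and midpiece genes (-3.40) to nuclear oxidative phosphorylation (1.89) and proteasome genes (1.94).

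Wild type gave a like order. In the fit on all 8 libraries, 48.9% of genes were over 2-fold off in wild type. The log2 ratios of both genotypes correlated at r = 0.91 across the 16050 genes of that fit. Of these, 6489 genes were over 2-fold off in the same direction in both, against 8 in opposite directions. Genotypes were compared by the interaction of genotype and assay in that fit. Of 16050 genes, 1187 (7.40%) had a higher ratio in the null and 1212 (7.55%) a lower one. These counts depended on single libraries: leaving out 1 library at a time gave 228 to 1918 higher and 379 to 1726 lower. Counts moved by over 1.5 times without null RNA library 1 (228 higher, 397 lower), null RNA library 2 (247 and 408), wild-type RNA library 1 (270 and 379) and wild-type RNA library 2 (420 and 563), and on the higher side without null footprint library 2 (694) and wild-type footprint library 2 (1918). Without scaling by TMM the split was 676 higher and 1649 lower, and the median interaction over all genes moved from 0.04 to -0.10.

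Several lists of spermatid genes had more members with a lower ratio in the null than with a higher one. Of 23 midpiece genes, 13 had a lower ratio in the null and 1 a higher one, and of 13 sperm chromatin genes 8 and 2. For acrosome genes the counts were 17 lower and 0 higher of 49. The tail list was divided, with 6 lower and 4 higher of 22 and a median interaction of -0.05; Spa17, one of its members, was higher in the null by 1.54. Cabs1, of the tail list, had the lowest interaction of all named genes: its log2 ratio was 0.88 in wild type and lower in the null by an interaction of -5.58 ± 0.18 (adjusted p = 7.95e-06). On the 8-library scale its mean RNA was 223 CPM in wild type and 63.1 in the null, and its footprints 410 and 2.42. Akap4 went from -3.38 in wild type by -4.10 ± 0.16, with mean RNA of 1266 and 578 CPM and footprints of 121 and 3.17. Odf1 also differed by -4.10, Smcp by -3.37, Pgk2 by -2.78, Prm1 by -2.62 and Tnp2 by -2.35. In wild type Tnp2 was near the typical gene (-0.16), with 3346 CPM in RNA and 3000 in footprints. The RNA of Cabs1, Akap4, Odf1, Smcp, Prm1 and Tnp2 was lower in the null as well. Pgk2 moved less in RNA, with means of 498 CPM in wild type and 411 in the null, against footprints of 139 and 17. Crisp2, with an interaction of -3.53, had more RNA in the null (790 CPM against 463). How far the share of elongating spermatids accounts for the lower ratios was not tested. No genotype difference beyond the spread was found in the low ratios of Gapdhs (interaction -0.46 ± 0.24, adjusted p = 0.233) and Atp8b3 (0.01 ± 0.13, adjusted p = 0.981). Of the 110 genes over 16-fold lower with RNA of at least 50 CPM, 56 had a lower ratio in the null than in wild type and 3 a higher one. The 110 were chosen by low ratios in these same null libraries, so this split is not independent of the choice.

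Higher ratios in the null were found in other groups. Ribosomal protein genes had 18 of 79 higher and 0 lower by interaction, with medians of -0.59 in wild type and -0.05 in the null. Nuclear oxidative phosphorylation genes had 22 higher and 0 lower of 76, Sertoli genes 10 and 0 of 34, and Leydig genes 7 and 0 of 28. Summed over their 7 markers, Leydig cell RNA was 2286 and 2304 CPM in the null and 1122 and 1126 in wild type, and its part in these counts was not tested. Axonemal genes had 10 higher and 3 lower. Osgin1 was low in both genotypes but less so in the null (-5.24 in wild type, interaction 2.85 ± 0.17), and Ybx2 went from -0.85 to near 0 (interaction 0.90 ± 0.13). In meiotic prophase 11 of 50 genes were lower in the null and 3 higher.

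**Figure D5:**
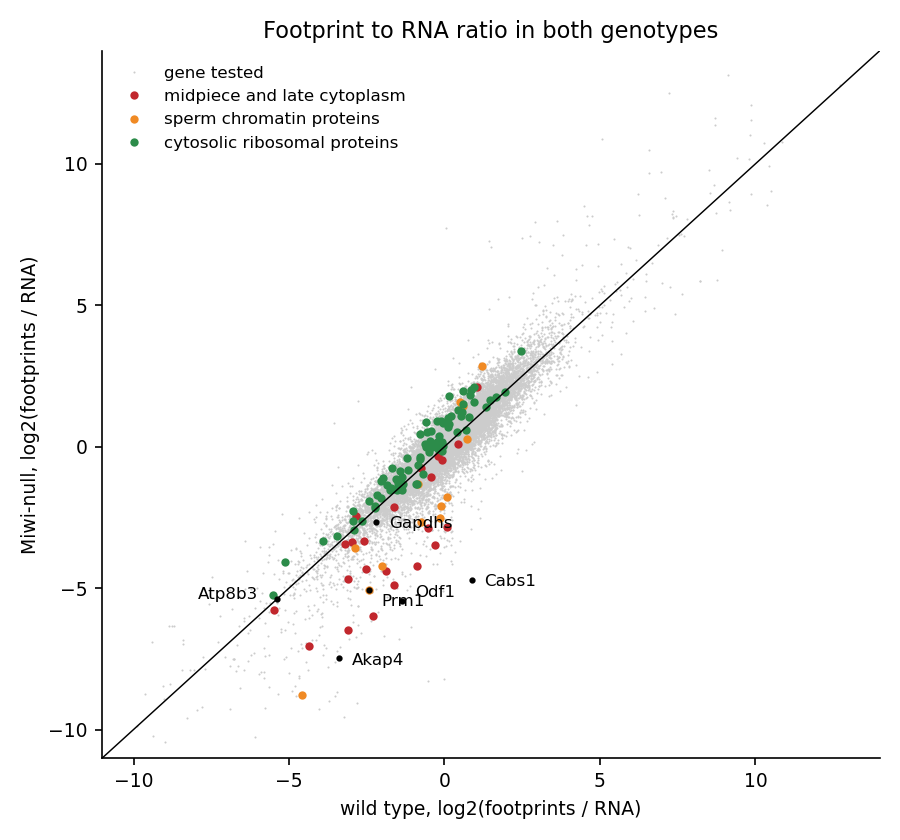
Log2(footprints / RNA) in Miwi-null against wild-type testis for the genes tested in the null, both from the fit on all 8 libraries, with the line of equality. Cabs1, Akap4 and Odf1 lie below the line, at interactions of -5.58, -4.10 and -4.10, and Atp8b3 lies on it (0.01).

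The highest ratios rested on very little RNA. In 51 genes RNA was under 1 CPM and footprints at least 10 CPM. RefSeq names a biotype for 41 of them and calls 12 of these pseudogenes, against 96 of 14748 over all genes tested with a biotype. Gm6665 had no RNA count and 591 and 2211 footprint counts, at least 557-fold higher over both libraries from a floor of 3 counts. Acta1, which shares most of its coding sequence with other actins, had 0 and 2 RNA counts and 1871 and 5778 footprint counts, a ratio of shares of 2280 with a 95% counting interval of 631 to 18833. Pnrc2 had no RNA count on the chosen transcript, and its ratio was -0.60 with the longest transcript. Such values are uncertain. How fragments shared by near copies were counted is unknown, and its part in these ratios was not tested. Among genes with at least 10 CPM in both assays, a set chosen after the values were seen, high ratios included Cst12 (31.0 and 31.8 CPM in RNA, 790 and 665 in footprints), Dbi, an acyl-CoA binding protein (22.1 and 22.9 against 483 and 378), Txn1, thioredoxin (13.7 and 13 against 311 and 233), and the splicing factor Srsf3 (32.4 and 32.9 against 689 and 405).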

How the data were processed

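Total RNA and ribosome footprints were sequenced from wild-type and Miwi-null testes, 2 libraries per group and 4 groups. Per the file headers, the authors deposited raw fragment counts per transcript, FPKM values and the ratio of footprint to RNA FPKM. Tools listed, without a role, in the submitters' processing notes are STAR 2.5.0a, Bowtie 1.2.2 and cutadapt 2.5, with the build GRCm38. The sources used here do not state the counter, the strand or the treatment of multiply mapping reads. Only counts were tested. Lengths were mostly multiples of 3 (84.7%), hence coding lengths. The deposited FPKM and ratio columns were only checked: the ratio equalled footprint over RNA FPKM in 100% of 107708 rows (tolerance 1e-08).

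In edgeR 4.0.16 (R 4.3.3), genes passed filterByExpr (minimum count 10, minimum total 15), were scaled by TMM and tested by quasi-likelihood, with Benjamini-Hochberg adjustment at 0.05. The Miwi-null fit held its 4 libraries (2 residual degrees of freedom) and the interaction fit all 8 (4 degrees of freedom). Coding length was adjusted by a smooth trend of the log2 ratio, recentred on the unadjusted median after a first uncentred run had been seen. The pairing of footprint and RNA libraries by replicate number was checked and not used, since deviations of same-numbered libraries correlated at only 0.0228 (null) and 0.0735 (wild type). In simulated counts for the null comparison, 85 of 15310 genes were changed 2-fold and 115 were changed 4-fold. Of these, 89.4% and 96.5% were recovered, with 17 false calls. For the interaction (16050 genes, 109 and 91 changed) these were 33.9% and 85.7%, with 13 false calls. In the data 77.9% of genes were called in the null comparison, so these rates describe a setting with far fewer changed genes. There were 16 alternatives for the null comparison and 12 for the interaction.

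Members and the 25 gene lists were chosen with earlier results of these data known. Named genes were 20 always followed, the 15 largest in each direction at 10 CPM or more in the higher assay, the 2 largest per list and direction, and the 10 largest interactions in each direction. Further list members, families and genes at 10 CPM in both assays were named after their values were seen. Promoter starts came from RefSeq (GRCm38.p6).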

Additional observations from a re-analysis of the deposited data

Results flagged for a closer look

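Of 182 genes named by rule or by list, 73 had a ratio of footprints to RNA that differed between Miwi-null and wild type by the interaction test of edgeR on all 8 libraries, 43 lower and 30 higher in the null. Values in brackets are the log2 difference of the ratio, null minus wild type. Of the 73 calls, 50 held under every alternative run for the interaction and 23 were lost under at least 1.

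Among calls that held, the lowest values, at -4 or below, were Cabs1 (-5.58), 1700074P13Rik (-5.35), Pfn5 (-5.29), Cpxcr1 (-5.23), 4933400A11Rik (-5.06), 1700009N14Rik (-4.76), Actrt1 (-4.23), Akap4 (-4.10) and Odf1 (-4.10). Values between -4 and -2 were those of Tex13a (-3.89), Dnajb8 (-3.68), 4933411K16Rik (-3.65), Crisp2 (-3.53), Fhl5 (-3.53), Smcp (-3.37), Spz1 (-3.28), Ms4a14 (-3.16), Fam71f2 (-3.15), Pgk2 (-2.78), Spem2 (-2.68), Prm1 (-2.62), Tnp2 (-2.35), Prm2 (-2.21), Fhl4 (-2.18), Spata21 (-2.07) and Gsg1 (-2.04). Smaller differences on the low side were Tnp1 (-1.89), Hspa1l (-1.81), Sord (-1.72), Phf7 (-1.71), Adam3 (-1.60), Atp1a4 (-1.24), Mroh2b (-1.17), Iqcn (-1.12), Phkg2 (-1.03) and Psme4 (-1.02). On the high side, values above 2 that held were Klk1b8 (4.39), Hist2h2ab (3.23), Atp5k (3.05), Hypk (2.99), Osgin1 (2.85) and Gm9844 (2.84), and smaller ones Tpm2 (1.69), Hist1h2aa (1.65), Hist1h4k (1.56), Spa17 (1.54), Aard (1.52), Rsph1 (1.09), Tpm1 (1.06) and Ybx2 (0.90).

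Calls lost under at least 1 alternative were, on the low side, 1700024P04Rik (-4.21), Btbd35f28 (-4.11), Muc16 (-1.30), Csnka2ip (-1.27), Spaca5 (-1.17), Papolb (-0.75) and Brca2 (-0.47). On the high side they were Gm10320 (5.80), Gsta1 (3.68), Bhmt2 (3.44), Ccl27b (2.37), Selenok (1.59), Cirbp (1.21), Eif4h (1.19), Rps21 (1.16), Rpl36 (1.06), Meig1 (1.04), Ncbp2 (1.01), Hba-a1 (0.99), Dmrtb1 (0.93), Apoc1 (0.90), Kif17 (0.61) and Eef2 (0.53). Gm10320 had no RNA count in either null library, so its value depends on the fit and is no bound.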

How the results depend on the processing

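The counts of genes with more or fewer footprints than RNA in Miwi-null testis stayed within 1.5 times under 15 of 16 alternatives; against a 2-fold difference (glmTreat) they were 3142 higher and 3217 lower, because that test asks for a larger difference. Without TMM the interaction gave 676 higher; without 1 library it gave 228 to 1918 higher and 379 to 1726 lower. With the replicate number as a block the counts were 6036 higher and 6006 lower (over 2-fold 4003 and 4033), and 914 and 935 for the interaction. Same-numbered libraries were not shown to be pairs. List medians reversed with the coding length trend removed for round spermatid transcription (0.05), selenoproteins (-0.07) and axoneme (0.53), and with the longest transcript for axoneme (0.01). Single genes reversed with the trend removed: Brca2 0.42, Cdh2 0.20, Dnah5 0.25, Hydin 0.21, Prm3 -1.11, Tjp1 0.48, Ybx2 -0.44 and mt-Nd6 -0.35. With the longest transcript Gpx4 was 0.07, Pnrc2 -0.60 and Slc35a4 -4.93. With summed transcripts Atf4 was 0.20, Slc35a4 -2.10 and Ybx2 -0.15. Ybx2 was -0.01 without TMM and Piwil1 ranged from -0.12 to 0.51 with 1 library left out. The causes were not tested. Of the other values for named genes, 2838 kept their direction and side of the threshold, 43 lost a call and 7 gained one. With 2 libraries per group, 1 library can decide a call, and genes under about 3 counts in 1 assay give ratios set by the fit.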
